A study of Mus musculus with 15 samples.

Results

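The genes described here are the receptors, the signal inhibitor and the transcription factors of the Hedgehog pathway: Ptch1, Smo, Gli1, Gli2, Gli3 and Sufu. They were chosen by name, as the rows of the deposited table whose Ensembl transcript maps to these genes, and all 6 had 1 row among the 11960 genes that could be matched. RNA-seq was performed on mouse dental mesenchymal cells (mDMCs) of the ICR strain and on dental mesenchymal tissue, to follow the cells as they left the tooth germ for culture. The mDMCs were obtained from embryonic mandibular first molars by removing the epithelium with dispase and dispersing the mesenchyme with trypsin. Freshly isolated mDMCs (0 h) were compared with mDMCs kept in FBS-supplemented medium for 12, 24, 36 and 48 h. Each of 0, 24, 36 and 48 h had 3 libraries, while 12 h had 2 and the tissue had 1. No group carried a transgene or a mutation. The sources used here do not say whether libraries of 1 time point came from separate litters or dishes, so the p-values measure only the spread between these libraries, which may be technical.

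In the Hedgehog pathway, Ptch1 is the receptor that binds the secreted ligands, and without ligand it holds the membrane protein Smo inactive. When ligand binds, Smo accumulates in the primary cilium, the antenna-like organelle where the signal is handled, and the Gli factors are released from their inhibitor Sufu. Gli2 is the main activator, Gli3 works largely as a repressor after being cut, and Gli1 and Ptch1 are themselves switched on by the signal, so that their transcripts are widely used as a readout of it. In the tooth germ the ligand Shh is made by the dental epithelium and received by both the epithelium and the mesenchyme.

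The values are whole-number scores that the authors had normalized before deposition. They are neither read counts nor CPM, the median score is 721 in each library, and the depth behind them is unknown. Scores were therefore compared between libraries for 1 gene at a time, on the log2(score + 1) scale, and not between genes. A gene was called lower or higher when the Benjamini-Hochberg adjusted p-value of limma over 12079 transcripts was below 0.05, and all 6 genes were among those tested. Most transcripts moved in culture: at 48 h, 34.0% of those tested were lower than at 0 h and 37.1% were higher.

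Some libraries stood apart. The third library of 0 h and the first of 12 h deviated from their time points in a related way, with a correlation of 0.48 across transcripts, and both were high for Gli2, Gli3 and Sufu, as the latter was for Gli1. The first library of 0 h carried more epithelial transcripts than the others, with a summed score of 8 markers of 14067 against 1514 at the lowest of 0 h. The first and second libraries of 36 h were the closest of 13 replicate pairs, at a root mean square log2 difference of 0.29 against 0.35 for the next pair. With the first and second libraries of 36 h averaged into 1, an alternative chosen after seeing the data, all 6 genes were still called lower at 36 h, with log2 values from -0.87 for Smo to -9.45 for Gli1.

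The row of Ptch1 is the transcript ENSMUST00000021921 at chr13:63508328-63565735 of GRCm38 (mm10), on the minus strand, with 23 exons and 7725 bases. Because the receptor gene is itself a target of the signal and fell in every culture library, the 250 bases upstream of its start in RefSeq (GRCm38.p6, chr13:63565736-63565985, minus strand, written 5′ to 3′) are shown, with CG pairs in capitals.
Ptch1: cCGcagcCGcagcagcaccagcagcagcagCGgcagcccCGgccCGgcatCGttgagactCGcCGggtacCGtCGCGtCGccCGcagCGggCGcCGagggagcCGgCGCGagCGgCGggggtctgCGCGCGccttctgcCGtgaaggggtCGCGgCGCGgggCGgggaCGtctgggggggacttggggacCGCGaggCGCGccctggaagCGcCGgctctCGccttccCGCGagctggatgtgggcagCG
The stretch has a GC content of 78.4% and 41 CG pairs. The letters GACCACCCA, a binding site of the Gli factors, were searched on both strands in RefSeq windows of 300 bases that run past each start. They occurred in 83 of 32851 windows, or 0.253%, and in 0 of the 5 windows that matched Smo, Ptch1, Gli2, Gli3 or Sufu. At that share any 5 windows would rarely hold the letters, so their absence says nothing about binding by Gli factors. Gli1 had no window in the table of sequences.

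Ptch1 transcripts dropped sharply within 12 h and went on declining to 48 h. At 0 h the Ptch1 score was 2235, 3681 and 3848 in the 3 libraries. At 12 h it was 536 and 440. The 24 h libraries had 245, 235 and 239, those of 36 h had 195, 169 and 183, and those of 48 h had 161, 168 and 137. Each culture library lay below each freshly isolated library, and the lowest 0 h value was that of the library with the most epithelial transcripts. The log2 change of Ptch1 was -2.70 ± 0.20 (SE) at 12 h (adjusted p = 2.27e-07). It reached -4.34 ± 0.18 after 48 h (adjusted p = 4.93e-10), when the mean score was 21-fold lower. Without the first library of 0 h the value at 48 h was -4.60. The step between 12 and 24 h was -1.02 ± 0.20 (adjusted p = 0.00924), but without the first library of 12 h it was -0.87 with an adjusted p of 0.122. From 24 to 48 h Ptch1 fell by a further 0.63 ± 0.18 (adjusted p = 0.0224). That call was lost when any 1 of the 24 h libraries or the third of 48 h was left out, with adjusted p-values of 0.0552, 0.0537, 0.0553 and 0.0756 in that order and log2 values between -0.64 and -0.54.

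**Figure D1:**
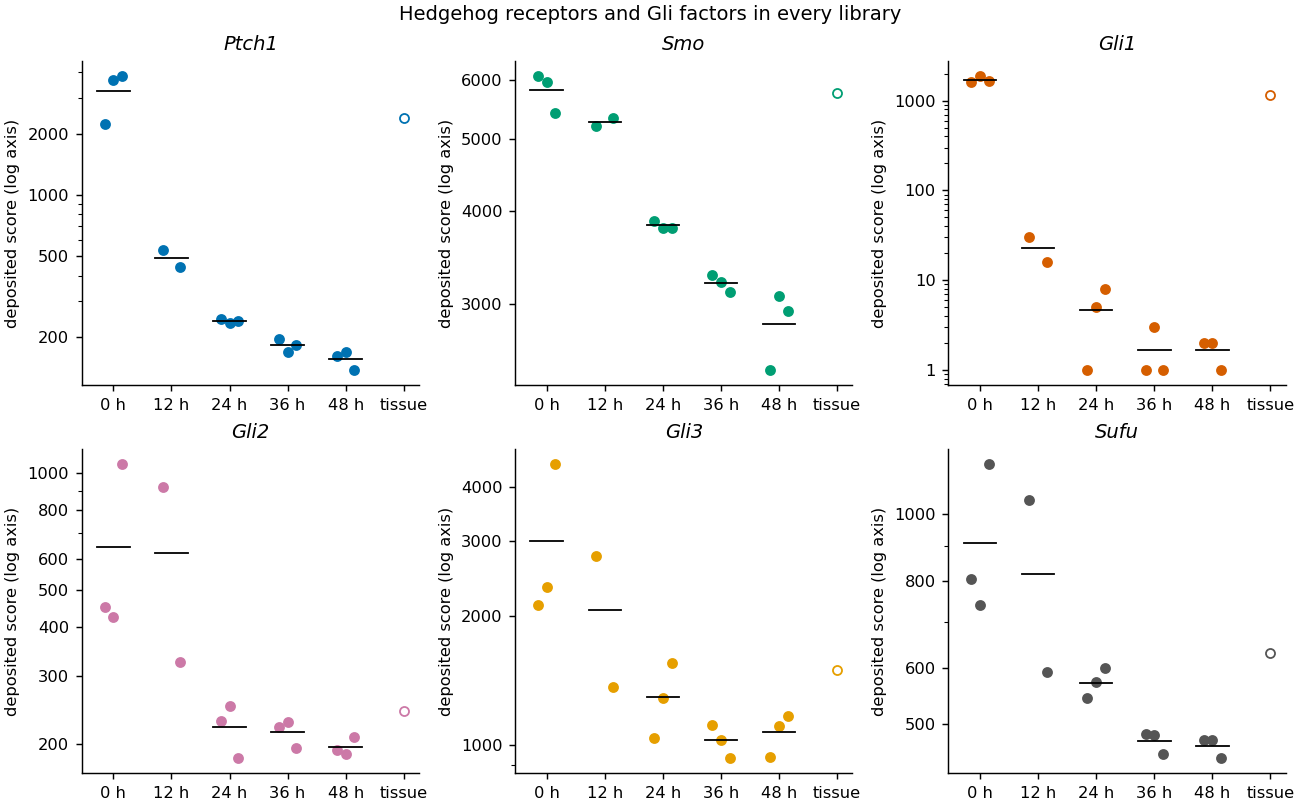
Deposited scores of the 6 genes in each library on log axes, 1 panel per gene, with filled points for libraries of mDMCs, short lines for the mean of a time point and an open point for the single tissue library. Ptch1 and Gli1 were already far below the 0 h libraries at 12 h, while the 12 h points of Gli2, Gli3 and Sufu overlapped those of 0 h, and the range of each axis differs between panels.

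Smo, the membrane protein that passes the signal on, declined more slowly, with the largest step between 12 and 24 h. Its row is ENSMUST00000001812 at chr6:29735694-29761365, plus strand, with 12 exons and 3779 bases. The Smo score was 6085, 5978 and 5426 at 0 h, and 5213 and 5336 at 12 h. Scores of 3886, 3803 and 3803 followed at 24 h, the 36 h libraries had 3286, 3218 and 3118, and those of 48 h had 2446, 3079 and 2940. The libraries of 0, 12, 24 and 36 h followed each other without overlap, and those of 48 h lay below all of 36 h. The difference at 12 h was small and was not called, at -0.14 (95% interval -0.35 to 0.06, adjusted p = 0.215). The log2 change of Smo was -0.60 ± 0.08 at 24 h (adjusted p = 3.63e-05). By 48 h the estimate was -1.05 ± 0.08 (adjusted p = 2.05e-07), a mean score 2.07-fold lower. The step from 12 to 24 h was -0.46 ± 0.09 (adjusted p = 0.0121), and it was not called without the first library of 12 h (-0.48, adjusted p = 0.0858) or in a fit of only the compared times (adjusted p = 0.0573). From 24 to 48 h Smo fell by 0.45 ± 0.08 (adjusted p = 0.00279), and this call held with each library left out in turn.

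Gli1, the activator whose own transcription reports the signal, changed more than any of the other 5 genes. Its row is ENSMUST00000026474 at chr10:127329882-127341974, minus strand, with 13 exons and 4057 bases. The Gli1 score was 1608, 1888 and 1650 at 0 h and 30 and 16 at 12 h. Scores of 1, 5 and 8 were left by 24 h, the 36 h libraries had 1, 3 and 1, and those of 48 h had 2, 2 and 1. The lowest freshly isolated library was thus far above the highest culture library, and from 24 h on the scores were at the bottom of the scale, where the 1st percentile of a library was 8.0. On the log2 scale Gli1 changed by -6.22 ± 0.59 at 12 h (adjusted p = 1.93e-06), and its 48 h value was -9.35 ± 0.52 (adjusted p = 7.89e-09). The size of the change at 48 h depends on the constant added before taking logs, being -9.98 with a constant of 0.1. Gli1 passed the filter on low values because of its 0 h libraries and the first of 12 h, and it was left out when at least 1 ppm was required in all 14 libraries of mDMCs. From 12 to 24 h the estimate was -2.27 ± 0.59 (adjusted p = 0.0324). This step was not called without the second library of 0 h (adjusted p = 0.0527), the first of 12 h (0.29), the first of 24 h (0.055) or the second of 24 h (0.0723), with log2 values from -2.44 to -1.64. With the constant of 0.1 its adjusted p was 0.0591, and with only the compared times 0.17. Exons of Arhgap9 and Gm47200 on the opposite strand overlap the Gli1 row by 62 and 265 bases, and reads of the 2 strands may not be told apart because no strand setting was stated.

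Gli2 and Gli3 scattered widely at 12 h and were lower from 24 h on. The Gli2 row is ENSMUST00000062483 at chr1:118834132-119053619, minus strand, with 14 exons and 6637 bases. Its score was 452, 424 and 1054 at 0 h. It was 918 and 325 in the 12 h libraries, so that 1 library in each group was far above its companions, and the second of 12 h lay below all of 0 h. Later scores were 229, 251 and 184 (24 h), 221, 228 and 196 (36 h), and 193, 189 and 209 (48 h). All 9 of these libraries lay below those of 0 h and 12 h, and they varied little among themselves. The Gli2 estimate at 12 h was -0.10 (95% interval -0.98 to 0.77, adjusted p = 0.849). It was -1.41 ± 0.36 by 24 h (adjusted p = 0.00372) and -1.57 ± 0.36 by 48 h (adjusted p = 0.00166). Without the third library of 0 h the change was -0.99 at 24 h and -1.15 at 48 h, and both were still called.

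The Gli3 row is ENSMUST00000130065 at chr13:15463235-15715091, plus strand, with 12 exons and 2004 bases. It is shorter than the longest of the 4 annotated transcripts of the gene, which has 8170 bases, and the sources used here do not say whether the score sums over transcripts. The Gli3 score was 2127, 2339 and 4527 at 0 h. In the 12 h libraries it was 2763 and 1368, with the same high libraries as for Gli2 and the second of 12 h again below all of 0 h. The 24 h scores were 1040, 1289 and 1557, the 36 h scores 1117, 1030 and 932, and the 48 h scores 939, 1108 and 1172. The culture libraries from 24 h on lay below those of 0 h, while the highest of 24 h exceeded the lower of 12 h. At 12 h Gli3 differed from 0 h by -0.54 (95% interval -1.23 to 0.15, adjusted p = 0.165). The difference was -1.14 ± 0.28 by 24 h (adjusted p = 0.00321) and -1.40 ± 0.28 by 48 h (adjusted p = 0.000677). With the third library of 0 h left out these values were -0.80 and -1.06, and both were still called. Exons of Gm6556 on the opposite strand overlap the row by 174 bases.

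Sufu, which holds the Gli factors in the cytoplasm, had the estimate closest to 0 of the 6 genes at 48 h, though not at the earlier times. Its row is ENSMUST00000039922 at chr19:46396896-46488804, plus strand, with 12 exons and 4522 bases. The Sufu score was 806, 741 and 1179 at 0 h. The 12 h scores were 1047 and 593, and the highest library of each group was again the one that was highest for Gli2 and Gli3. The 24 h scores were 545, 573 and 600, those of 36 h were 483, 482 and 452, and those of 48 h were 473, 474 and 446. All libraries from 24 h on were below all of 0 h, and those of 36 and 48 h overlapped each other. The Sufu estimate at 12 h was -0.17 (95% interval -0.64 to 0.29, adjusted p = 0.509). It was -0.64 ± 0.19 by 24 h (adjusted p = 0.0102) and -0.94 ± 0.19 by 48 h (adjusted p = 0.000696), and without the third library of 0 h these values were -0.43 (adjusted p = 0.0493) and -0.73.

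The 2 high libraries move with the results for Gli2, Gli3 and Sufu at 12 h. The third library of 0 h exceeded the mean of the other 2 by 1.27 for Gli2, 1.02 for Gli3 and 0.61 for Sufu on the log2 scale, where the 90th percentile over all transcripts was 0.50. For Ptch1, Smo and Gli1 the same differences were 0.42, -0.15 and -0.08. The first library of 12 h exceeded the second by 1.5 for Gli2, 1.01 for Gli3 and 0.82 for Sufu, against a 90th percentile of 0.47, and the difference was 0.87 for Gli1, 0.28 for Ptch1 and -0.03 for Smo. In both contrasts longer transcripts tended to be higher, with Spearman correlations across transcripts of 0.28 and 0.39. The part of these libraries in the results was not tested beyond leaving them out.

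Counted together, 2 of the 6 genes were lower than at 0 h at 12 h, Ptch1 and Gli1, where 28.3% of all transcripts tested were lower. All 6 were lower at 24 h, 36 h and 48 h, against 31.8%, 34.0% and 34.0% of all transcripts, and the 0 h libraries did not overlap with those of culture for 3, 6, 6 and 6 genes in time order, against 32.6%, 33.1%, 36.6% and 34.6% of transcripts that lay wholly lower. At each time 0 of the 6 genes were higher, also at an unadjusted p below 0.05 in limma, while 29.9%, 35.0%, 36.0% and 37.1% of all transcripts were called higher. In time order the median log2 change of the 6 genes was -0.36, -1.28, -1.46 and -1.49, while the median over all transcripts tested lay between 0.02 and 0.03. The libraries share the same median score, so a small median change over all transcripts is largely set by the normalization. The study's thresholds, a p below 0.05 and a fold above 2, were also applied, here to unadjusted limma p-values instead of DESeq2 results. The counts were then 2, 4, 4 and 5 in time order, against 12.1%, 14.2%, 15.6% and 15.9% of all transcripts. Without the first library of 12 h, which leaves 1 library at that time that is assumed to vary like the other groups, 4 genes were lower at 12 h. Gli3 was then at -1.05 (adjusted p = 0.0243) and Sufu at -0.58 (adjusted p = 0.0304). With both high libraries left out the count was also 4, with Gli3 at -0.70 (adjusted p = 0.0183) and Sufu at -0.38 (adjusted p = 0.0152), an alternative chosen after seeing the data.

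**Figure D2:**
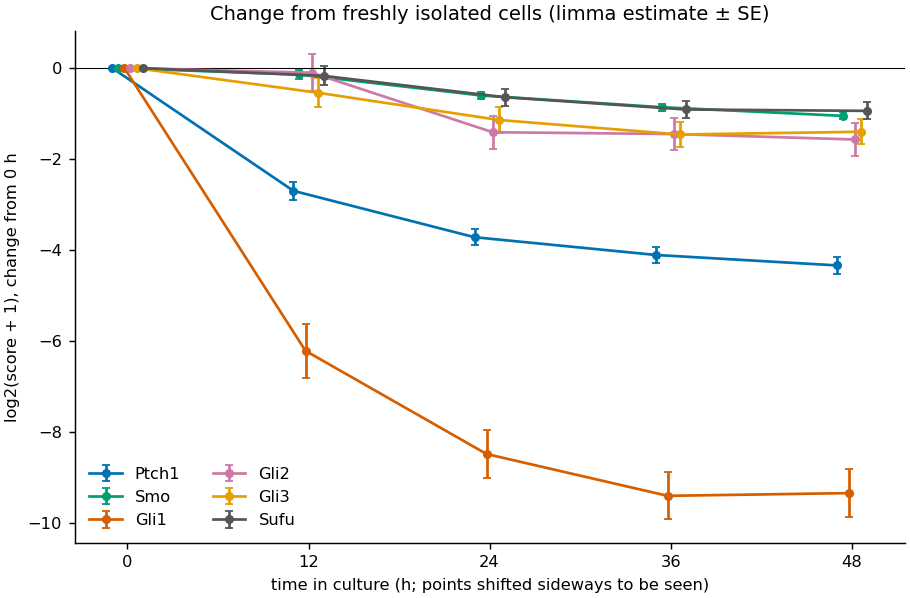
Change from 0 h of the 6 genes in log2(score + 1) against hours in culture, as limma estimates with SE bars from 14 libraries. Gli1 stood at -6.22 and Ptch1 at -2.70 by 12 h, and the other 4 genes ended between -1.57 and -0.94 at 48 h.

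The share of the 48 h change that was reached early varied between the genes and between libraries. By 12 h, Gli1 had covered 66.5% of its log2 change and Ptch1 62.2%. The share was 38.4% for Gli3, 18.7% for Sufu, 13.6% for Smo and 6.55% for Gli2, and these 4 changes were not called at that time. Without the first library of 12 h the shares were 74.6% for Gli3, 62.4% for Sufu and 54.1% for Gli2, near those of Gli1 (71.2%) and Ptch1 (65.4%), and Smo was at 12%. Without the second library of 12 h they were 2.25% for Gli3, -25% for Sufu and -41% for Gli2. The early share of these 3 genes thus rests on which library of 12 h is used. By 24 h the share was highest for Gli1, at 90.8%, and lowest for Smo, at 57.4%. At 36 h Smo had reached 81.8%, and the others between 92.1% for Gli2 and 104% for Gli3. These shares are ratios of estimates that use the same 0 h libraries and are given without a test.

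Within culture fewer steps passed the test. From 12 to 24 h, 3 of the 6 genes were lower, namely Ptch1, Smo and Gli1, against 3.67% of all transcripts. This count was 0 without the first library of 12 h and 5 without the second, and it was 1 when only the compared times were fitted. From 24 to 36 h, 0 genes were called by limma, against 9.64% of transcripts lower, although Ptch1 (-0.39) and Smo (-0.26, adjusted p = 0.0504) had unadjusted p-values below 0.05, as did 34.8% of transcripts in either direction. From 36 to 48 h, 0 genes were called as well, with 0.0248% of transcripts lower. Smo alone had an unadjusted p below 0.05 for that step (-0.19), against 13.4% of transcripts in either direction. Over the longer step from 24 to 48 h, Smo and Ptch1 were lower, against 11.7% of transcripts, and 12.2% of transcripts were higher. For Gli1, Gli2, Gli3 and Sufu the differences over that step were -0.86 (95% interval -2.0 to 0.27), -0.16 (-0.94 to 0.62), -0.26 (-0.88 to 0.36) and -0.30 (-0.72 to 0.11).

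The changes were also set against each other within libraries, so that any scale shared by a library cancels. The log2 difference between 2 genes was compared between the 3 libraries of 0 h and the 11 of culture with an exact two-sided permutation test, for 6 pairs, where 0.00549 is the smallest p that 364 divisions allow. Gli1 minus Gli2 averaged 1.54 ± 0.79 (SD, n = 3) at 0 h and -5.79 ± 0.95 (SD, n = 11) in culture, a shift of -7.33 (exact permutation p = 0.00549, adjusted over the pairs 0.00659). Against Gli3 the shift of Gli1 was -7.37, and Sufu moved by 7.85 relative to Gli1, each with the same exact permutation p. Ptch1 fell less than Gli1, with a shift of 4.75, and more than Smo, with a shift of -3.10, again at the smallest possible exact permutation p. Gli2 and Gli3 lay at a similar distance, at -2.26 ± 0.18 (SD, n = 3) and -2.30 ± 0.36 (SD, n = 11), a shift of -0.04 (exact permutation p = 0.857). The values for Gli2 minus Gli3 ran from -2.46 to -2.10 at 0 h and from -3.07 to -1.59 in culture. From 24 h on Gli1 was at the bottom of the scale, so the size of the 4 shifts that involve it depends on the constant added before taking logs. With a constant of 0.1 they were -7.82 against Gli2, -7.86 against Gli3, 8.34 for Sufu and 5.23 for Ptch1, at the same exact permutation p. These differences are of scores and say nothing of which transcript was more abundant in a library.

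**Figure D3:**
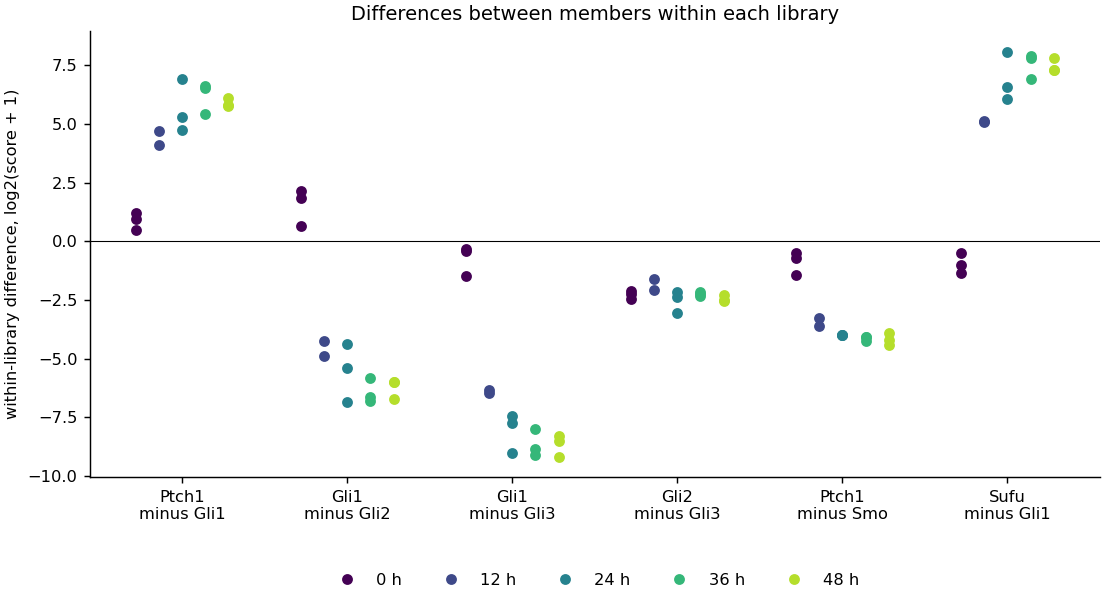
Difference between 2 genes within each of the 14 libraries of mDMCs, in log2(score + 1), for 6 pairs, with 1 point per library coloured by time in culture. For the 5 pairs other than Gli2 minus Gli3 no culture library overlapped a library of 0 h.

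Across the 14 libraries of mDMCs the log2 values of Ptch1 and Gli1 had a Pearson correlation of 0.98. Gli2, Gli3 and Sufu correlated with each other at 0.93 to 0.97, and Smo with the other 5 at 0.78 to 0.87. The libraries share the time points, and 2 of them the deviation described above, so these values are descriptions. By the same measure, the genes most like Gli1 were D430019H16Rik (0.995), Ptgfr (0.989) and Mturn (0.988). Those most like Ptch1 were Spon1 and Kbtbd7 (both 0.992) and Frem1 (0.991). The genes closest to Smo were Fam20b (0.982), Vangl2 (0.981) and Cemip2 (0.979). Gli2 was most like Alg2 (0.974), Srcap (0.973) and Ep400 (0.967), and Sufu most like Ep400 (0.992), Arid1a (0.989) and Ncoa2 (0.988). Gli3 was most like Gpc6 (0.993), a glypican, Adnp (0.989) and Runx2 (0.987), a transcription factor of bone and tooth cells.

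The single tissue library, which had not been dispersed, has no replicate and was set beside the range of the 0 h libraries without a test. Ptch1, at 2397, and Smo, at 5776, lay within that range in the tissue. Gli1 (1158), Gli2 (244), Gli3 (1498) and Sufu (631) lay below all 3 freshly isolated libraries, a position held by 32.0% of all transcripts tested. The Gli1 score of the tissue was still far above the highest culture library, at 30. In contrast, Gli2 and Gli3 in the tissue were below their highest 24 h libraries, at 251 and 1557.

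Other ligand-binding proteins of the pathway mostly fell along with these genes. The ligands Shh, Ihh and Dhh had no row. Of 9 co-receptors and binding proteins, 6 were lower at 48 h, 1 was higher and 2 were not called, where 34.0% of all transcripts were lower and 37.1% higher. The median of the 9 was -1.64. Hhip, a decoy that binds the ligand and is also a target, went from a mean of 247.3 to 77.3, with an estimate of -1.64 ± 0.34 (adjusted p = 0.000841).

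The co-receptors that help ligand reach Ptch1 differed among themselves. Cdon scored between 2154 and 2478 at 0 h and between 519 and 583 at 48 h (-2.10 ± 0.13, adjusted p = 2.63e-08). Gas1 went from between 2509 and 2612 to between 1130 and 1242 (-1.12 ± 0.12, adjusted p = 3.11e-06). Boc, the relative of Cdon, overlapped at 1706 to 2252 and 1656 to 1900 and was not called (-0.17, 95% interval -0.41 to 0.08). Of the glypicans, cell-surface proteoglycans, Gpc3 was at -2.32 ± 0.24 and Gpc6 at -1.83 ± 0.32, both lower, while Gpc4 was not called (0.57, adjusted p = 0.0557). Lrp2, a large endocytic receptor, was the member of this list that rose, from 13, 5 and 4 at 0 h to 429, 154 and 183 at 48 h (4.94 ± 0.41, adjusted p = 2.42e-07). It passed the filter only through its culture libraries, and because its 0 h scores are near the bottom of the scale the size of its rise depends on the constant added before taking logs.

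Genes known to respond to Hedgehog signalling in various tissues did not move in 1 direction. Besides Ptch1 and Gli1, 20 of the list had a row, of which 10 were lower at 48 h, 5 were higher and 5 were not called, against 34.0% and 37.1% of all transcripts lower and higher. The median of the 20 was -0.39. Among the lower genes were Mycn, a growth regulator, at -3.12 ± 0.24, and Sfrp1, an inhibitor of Wnt signalling, at -2.32 ± 0.21. Hhip was at -1.64, Prdm1 at -1.60, Tsc22d1 at -1.41, the cyclin Ccnd2 at -1.34, Foxf1 at -1.19, the survival factor Bcl2 at -0.98 and Foxc1 at -0.69. Igfbp6, which binds insulin-like growth factors, rose from a mean score of 5.3 to 906.0 (7.12 ± 0.27). The same limits hold for it, since its 0 h scores were at the bottom of the scale and it passed the filter only through its culture libraries. Cyp1b1 rose by 2.51 ± 0.21, the signalling protein Bmp4 by 1.61 ± 0.12, the cyclin Ccnd1 by 1.28 ± 0.18 and Rab34 by 0.44 ± 0.07. Foxf2 (0.32), Foxd1 (-0.06), Foxm1 (-0.10), Osr1 (0.10) and Snai1 (1.05) were not called. Many of these genes answer to other signals too, so the list is not specific to the pathway.

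**Figure D4:**
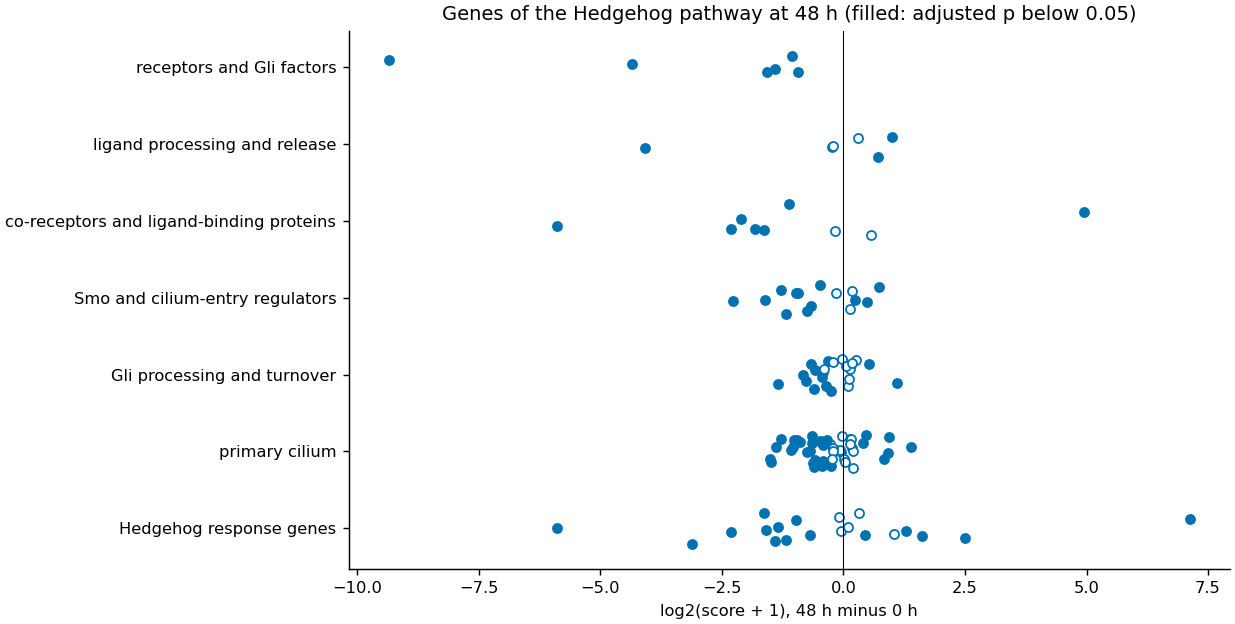
Change from 0 h to 48 h in log2(score + 1) of the genes of the Hedgehog pathway, 1 point per gene in rows by list, filled where the adjusted p was below 0.05; height within a row has no meaning. The 6 receptors and Gli factors were all filled and lower, and every other list had filled points on both sides of 0.

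Regulators acting on Smo and at the entry to the cilium were more often lower than higher. Of 15 tested, 9 were lower at 48 h, 3 were higher and 3 were not called, beside 34.0% lower and 37.1% higher over all transcripts. Among the largest falls were those of Arrb1, an arrestin (-2.27 ± 0.22), and Evc, which relays the signal of Smo at the base of the cilium (-1.61 ± 0.09). The 3 rises were those of Sc5d, an enzyme of cholesterol synthesis (0.73 ± 0.15), Efcab7 (0.48 ± 0.10) and Mosmo (0.24 ± 0.10). Of 23 genes for the processing and turnover of the Gli factors, 11 were lower, 2 were higher and 10 were not called, beside the same shares over all transcripts, and their median was -0.26. Adcy5, an enzyme that makes cyclic AMP (-1.34 ± 0.23), Btrc, a ubiquitin ligase subunit that acts on Gli factors (-0.84 ± 0.09), and the kinase Dyrk2 (-0.78 ± 0.16) fell most. Rab23, a negative regulator of the pathway, rose by 1.11 ± 0.11, and Spop, an adaptor for the degradation of Gli2 and Gli3, by 0.52 ± 0.09.

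Transcripts of other cell types moved with the time in culture. The marker counts at 48 h stand beside 34.0% lower and 37.1% higher over all transcripts tested. All 10 markers of dental mesenchyme had a row, with 7 of 10 lower at 48 h. Their summed score went from between 82908 and 98231 at 0 h to between 47979 and 57031 at 48 h. The largest parts of this sum at 0 h were Prrx1, at 40667 to 50479, and Pdgfra, at 16448 in each library. At 12 h, 7 of the 10 were lower and 1 higher, against 28.3% and 29.9% of all transcripts. At 24 h, 6 of the 10 were lower and 0 higher (median -0.59), against 31.8% and 35.0% of all transcripts. That sum ran from 52054 to 95444 at 24 h, and 1 library, with Prrx1 at 70675, reached the range of 0 h. All 6 endothelial markers were lower at 48 h, and their sum went from between 7975 and 9452 to between 487 and 851. All 6 red cell markers with a row were lower, from between 97654 and 150514 in sum to between 51 and 168. At 12 h, when Gli1 and Ptch1 had already fallen, the endothelial sum was between 707 and 844 and the red cell sum between 365 and 457. The 3 macrophage markers with a row of 7 were also lower, and their sum went from between 733 and 978 to between 247 and 313. Of the 8 epithelial markers with a row 5 were lower at 48 h. Their sums ran from 1514 to 14067 at 0 h and from 370 to 1229 at 48 h, with 5059 in the tissue. Among these markers a score of 0 occurred for Krt5 in a library of 36 h, Cdh5 and Tie1 in a library of 36 h, Tie1 in a library of 48 h and Hbb-bt in a library of 48 h. Only 2 of 5 Schwann and nerve markers had a row, with sums from 232 to 803 at 0 h, from 1134 to 1239 at 12 h and from 362 to 1048 at 48 h. The 3 muscle markers with a row summed to between 117 and 641 at 0 h. Their sums were 819 to 870 by 12 h, 481 to 2340 by 36 h and 411 to 1072 by 48 h. At 36 h, 2 of the 3 were called higher, against 36.0% of all transcripts. In bulk RNA, fewer cells of a type and less RNA per cell cannot be told apart. The part of these cell types in the changes of the Hedgehog genes was not tested.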

How the data were processed

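The 15 libraries (Illumina TruSeq) were grouped by time point and replicate number as labelled. The authors trimmed the reads and aligned them with bowtie to the mouse transcriptome (mm10, Ensembl). They estimated expression with RSEM (version 1.1.21 per the submitters' processing notes, while their paper gives another) and called genes with DESeq2. They deposited 1 table of whole-number expression scores for 12089 transcripts. Library totals of 21357605 to 21365980 and a shared median and largest value show that the score is neither a read count nor CPM; the normalization step is not given in the sources used here. A change in total RNA per cell cannot be seen, no counting interval can be given, and precision comes from the replicates alone.

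Transcripts were matched to GRCm38 (GENCODE); 11973 matched 11960 genes. On log2(score + 1), limma 3.58.1 under R 4.3.3 was run over the 14 mDMC libraries with 1 mean per time point and an intensity trend. A transcript was tested if 2 or more libraries held 1 ppm or more of their total for it, which 12079 did. The tissue was left out of the fit. Calls used a two-sided adjusted p below 0.05. Simulated data with known changes were used to check this step. Differences between genes used exact permutation tests (scipy 1.17.1). Replicate numbers were not used to pair the libraries in the main fit, and whether they mark pairs was not tested.

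Named genes were each receptor and Gli factor, each ligand, co-receptor and response gene with a row, the 3 largest called rises and falls of the longer lists at 48 h, and the 3 genes most correlated with each receptor or Gli factor. The results of 2 genes of the lists are not reported here. The genes and lists were chosen with earlier results of these data known. Alternatives were a pseudocount of 0.1, no filter and a stricter filter, trimmed-mean scaling, a fit without the other time points, the replicate block, no intensity trend, the study's threshold, each library left out, and, added after seeing the data, both high libraries left out and the closest 36 h libraries averaged.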

Additional observations from a re-analysis of the deposited data

How the results depend on the processing

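The 6 genes were called lower at 24, 36 and 48 h in all alternatives that used an adjusted p and kept each gene in the test, with single libraries left out included. The trimmed-mean factors lay between 0.971 and 1.014, so that scaling could change little in scores that were already normalized. The count at 12 h was 1 when every one of the 14 libraries had to reach 1 ppm, which removes Gli1, 4 without both high libraries, and 2 to 4 with each library left out. From 12 to 24 h the count of 3 was 1 with only the compared time points, 0 without both high libraries, and 0 to 5 with each library left out. From 24 to 36 h the count of 0 was 3 with only the compared time points, 2 without both high libraries, and 0 to 1 with each library left out. From 24 to 48 h the count of 2 was 0 by the study's threshold, since both changes are below 2-fold, and 1 to 2 with each library left out. The cause was not tested where none is given. With 48 h alone against 0 h the shifts between genes were 5.01 for Ptch1 minus Gli1, -7.78 for Gli1 minus Gli2, -7.95 for Gli1 minus Gli3, -3.29 for Ptch1 minus Smo and 8.41 for Sufu minus Gli1, each with an exact permutation p of 0.1, the smallest that 3 against 3 allow. Among the co-receptors 0 were higher with the filter in all 14 libraries, which removes Lrp2. With each library left out, differences that were not called changed sign: Gli2 minus Gli3 ran from -0.13 to 0.04, Gli2 at 12 h from -0.85 to 0.64, Sufu at 12 h from -0.58 to 0.23 and Gli2 from 24 to 36 h from -0.16 to 0.06. From 36 to 48 h, Gli1 ran from -0.11 to 0.39, Gli3 from -0.01 to 0.15 and Sufu from -0.06 to 0.00. The replicate block changed no count of the 6 genes, with 2 lower at 12 h and 6 at 24, 36 and 48 h. Of the same-numbered pairs of libraries, 11 of 26 had deviations correlated above 0.1. Pairs with different numbers were not compared, so whether the numbers pair the libraries was not tested. The other recomputed counts stayed within 1.5 times the reported ones, and single genes crossed the threshold in some of them: from 12 to 24 h 2 genes were called with a pseudocount of 0.1, and by the study's threshold 4 were called at 24 and 36 h. The other recomputed shifts between genes kept their direction and their side of the threshold. Low scores limit Gli1 after 12 h, where steps of a few units near 0 set the log2 value.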

Other observations

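Genes of the primary cilium, the organelle through which Smo reaches the Gli factors, were mostly lower at 12 h, and more of them rose than fell from 24 to 48 h. Of 47 tested, 30 were lower and 6 were higher than at 0 h at 12 h, with a median log2 change of -0.55, against 28.3% lower and 29.9% higher over all transcripts. After 48 h 26 were lower and 6 higher, with a median of -0.39, against 34.0% and 37.1%. From 24 to 48 h, 16 of the 47 were higher and 1 was lower, against 12.2% and 11.7% of all transcripts tested. Wdr35, a carrier protein of transport within the cilium, had a mean score of 923.7 at 0 h that dropped to 472.0 at 12 h and then climbed to 846.3 by 24 h and 1762.3 by 48 h. Its estimate at 48 h was 0.93 ± 0.11 (adjusted p = 8.57e-06). Kif3b, a motor subunit of that transport, and Bbs5, a subunit of the BBSome that carries receptors in and out of the cilium, did not fall first: both were already called higher at 12 h, with means of 1280.5 against 971.0 and of 181.0 against 81.0. At 48 h Kif3b was higher by 0.92 ± 0.10 and Bbs5 by 1.38 ± 0.13. The largest falls at 48 h were those of Bbs2, another BBSome subunit (-1.52 ± 0.17), Tctn3, a protein of the cilium's base (-1.50 ± 0.12), and Ift140, a partner of Wdr35 (-1.38 ± 0.11). These are transcripts, and whether cells carried cilia was not measured here.

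Genes that process and release the ligand had 6 rows, of which 1 was lower, 2 were higher and 3 were not called at 48 h, against 34.0% lower and 37.1% higher over all transcripts. Scube1, a secreted protein that helps release the ligand, went from a mean score of 1039.0 to 64.3 (-4.08 ± 0.33, adjusted p = 1.97e-07). Hhat, the enzyme that adds palmitate to the ligand, rose by 0.99 ± 0.17, and Disp1, which exports it, by 0.72 ± 0.16.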
